A study of Mus musculus with 18 samples.

Results

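The comparison set colon RNA of ICR mice given Jinhua Hecha, a fermented green tea, against colon RNA of ICR mice given a compound Suanzoren capsule, which the labels also call compound jujube kernel. Its members were taken from the codes that head the columns of the deposited count table, JHHCGC for tea and FFZRC for capsule, and were 6 of the 18 libraries of the series, 3 per group. ICR is an outbred laboratory stock, so the mice were not genetically identical, and no genotype beyond the stock is given for any group. Tea and capsule were given into the stomach for 44 days, and 3 further libraries with the same letter C in their titles came from mice given saline for 44 days. The sources used here do not say what the letters C and X mean, and the 9 libraries with an X (3 tea, 3 capsule and 3 saline) are called set X below. According to the design text, colon RNA was taken from 3 mice of each treatment; no label ties a library to a mouse, so the p-values reflect variation among libraries that may be technical.

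The colon wall combines an absorptive and mucus-secreting epithelium with immune cells, enteric neurons and layers of smooth muscle, and a bulk library averages over all of them. Most of these cells carry a circadian clock, in which CLOCK and ARNTL drive the period, cryptochrome and REV-ERB genes whose products then repress them, so that the levels of many transcripts depend on the hour of sampling. Surfactant proteins and secretoglobins, by contrast, are made by the epithelium of alveoli and airways and serve as markers of lung tissue.

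The promoters of 3 clock genes that stood apart between the groups and of 2 lung genes that were higher in tea are shown first, because the genes of each list stood mostly on one side. They are 300-base windows from RefSeq on GRCm38.p6, from 250 bases before to 50 bases after an annotated start of the gene, printed 5′ to 3′ on the strand of the gene. Per3 lies on the minus strand at chr4:151044616-151044915 and its capitals mark the D-box TTATGTAA, Ciart on the minus strand at chr3:95882179-95882478 and Tef on the plus strand at chr15:81802423-81802722 with capitals on the E-box CACGTG, and Cxcl15 on the plus strand at chr5:90794284-90794583 and Sftpb on the plus strand at chr6:72304360-72304659 with capitals on CTCAAG, a core of sites bound by NKX2-1.

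Per3: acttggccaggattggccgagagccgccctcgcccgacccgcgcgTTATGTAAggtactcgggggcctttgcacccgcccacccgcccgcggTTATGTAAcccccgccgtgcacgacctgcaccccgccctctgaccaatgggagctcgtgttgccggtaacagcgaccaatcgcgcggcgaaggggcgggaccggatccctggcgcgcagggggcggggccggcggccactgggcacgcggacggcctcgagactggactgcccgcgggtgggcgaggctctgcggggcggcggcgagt
Ciart: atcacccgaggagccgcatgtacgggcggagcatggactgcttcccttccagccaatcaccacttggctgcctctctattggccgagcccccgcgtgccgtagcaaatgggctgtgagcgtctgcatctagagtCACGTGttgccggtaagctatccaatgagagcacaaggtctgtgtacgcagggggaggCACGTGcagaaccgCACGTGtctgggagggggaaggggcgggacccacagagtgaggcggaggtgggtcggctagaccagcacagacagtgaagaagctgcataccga
Tef: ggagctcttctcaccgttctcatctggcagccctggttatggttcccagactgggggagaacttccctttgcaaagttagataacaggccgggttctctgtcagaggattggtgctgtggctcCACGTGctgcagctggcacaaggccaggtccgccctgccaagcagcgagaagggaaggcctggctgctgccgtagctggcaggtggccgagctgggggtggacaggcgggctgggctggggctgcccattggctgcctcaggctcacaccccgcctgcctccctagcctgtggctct
Cxcl15: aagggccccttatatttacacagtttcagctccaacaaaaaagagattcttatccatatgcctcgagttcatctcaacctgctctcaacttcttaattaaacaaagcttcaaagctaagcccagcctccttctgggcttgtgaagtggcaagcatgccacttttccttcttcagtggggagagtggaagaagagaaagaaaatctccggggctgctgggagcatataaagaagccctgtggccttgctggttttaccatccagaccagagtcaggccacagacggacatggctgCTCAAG
Sftpb: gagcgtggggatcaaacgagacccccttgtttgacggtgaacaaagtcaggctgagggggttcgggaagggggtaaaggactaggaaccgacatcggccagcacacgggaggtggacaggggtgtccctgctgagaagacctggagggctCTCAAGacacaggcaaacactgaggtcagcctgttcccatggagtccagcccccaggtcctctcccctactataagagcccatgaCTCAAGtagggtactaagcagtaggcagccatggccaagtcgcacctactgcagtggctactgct

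Ciart held 3 E-boxes, Tef 1 in this window, Per3 2 D-boxes, Cxcl15 1 CTCAAG and Sftpb 2. The match of Cxcl15 lay 44 bases after the start, at the end of the window, and those of Sftpb 100 and 15 bases before it. Both strands were searched. Among the clock genes 20 matched a window, of which 5 (25.0%) held CACGTG against 7.15% of all 32851 windows, and 3 (15.0%) held a D-box (TTATGTAA or TTATGCAA) against 1.66% of all. Among the lung genes 13 matched a window and 6 (46.2%) held CTCAAG, against 15.9% of all windows. Not all genes behind these shares differed between tea and capsule. Of those with CTCAAG, Cxcl15, Sftpa1 and Sftpb lay wholly above capsule. Hopx overlapped, Bpifa1 had no read in either group and Scgb3a1 did not pass the filter on low counts. Cry1 and Timeless, counted in the clock shares, overlapped as well. Sftpc and Scgb1a1 had no window. The list shares count genes with a match in any of their windows, whereas the shares of all count single windows. The 20 clock genes had 28 windows and the 13 lung genes 15, so the list shares are raised beside those of all windows. The windows of Dbp, Nr1d1 and Nr1d2 held no CACGTG. A match describes these letters only and says nothing of binding.

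The libraries carried the transcripts of colon. Epcam, an epithelial adhesion molecule, stood at 1953 to 2464 CPM in tea and 1750 to 2718 CPM in capsule, where CPM is the count scaled to library size with TMM factors. The smooth muscle myosin Myh11 stood at 720.5 to 3065 CPM in tea and 398.9 to 3238 CPM in capsule. Neither gene is particular to colon. Of the colon epithelium markers, the goblet cell mucin Muc2 stood at 340.9 to 1542 CPM in tea and 69.3 to 2196 CPM in capsule. The carbonic anhydrase gene Car1 stood at 349.0 to 1324 CPM in tea and 463.6 to 631.1 CPM in capsule. Depth was 62081847 to 76830278 counts per library. The first principal component of the 9 libraries of set C (37.6% of the variance) set tea 48, capsule 24 and saline 17 apart, 1 library per group. Mitochondrially encoded transcripts took 5.68 to 13.01% of counts in tea and 5.48 to 24.88% in capsule, with the highest share of each group in tea 48 and capsule 24. The mean shares were 8.38% ± 4.03 in tea and 12.1% ± 11.1 in capsule (SD, n = 3 each; two-sided exact permutation p = 0.9, smallest possible p = 0.1). The labels give no sex. Xist, the RNA of the inactive X chromosome, stood at 348.9 to 447.5 CPM in tea and 292.1 to 464.6 CPM in capsule, and at 0.916 to 10.2 CPM in set X. Saline of set C held 360.7 to 454.7 CPM. Ddx3y, a Y-linked gene, stood at 0.218 to 1.12 CPM in tea and capsule of set C and at 15.9 to 59.5 CPM in set X. These levels are those of female tissue in set C and of male tissue in set X, so set and sex cannot be told apart. The part of sex in differences between the sets was not tested.

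Lung transcripts were the ones that passed the test between tea and capsule. Sftpc, Scgb1a1 and Cxcl15 were present in all 3 tea libraries, had no read in any capsule library, and rose past an adjusted p of 0.05 (edgeR quasi-likelihood test, Benjamini-Hochberg adjustment). They were the 3 genes called among 20964 tested (0.0143%), and no gene was called lower. At an unadjusted p under 0.05 stood 1094 genes (5.22%), 666 higher (3.18%) and 428 lower (2.04%) in tea. A positive log2 fold change was found in 48.2% of all genes tested.

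In every list of values below the tea libraries come in the order 7, 19 and 48, the capsule libraries in the order 5, 12 and 24, and the saline libraries in the order 2, 8 and 17. Sftpc, the surfactant protein of alveolar type II cells (chromosome 14, 70520949 to 70524081, minus strand), stood at 26.3, 45.3 and 54.1 CPM in tea and at 0 CPM in each capsule library. It was at least 931-fold higher in tea, with a floor of 3 counts per library in place of 0 (adjusted p = 0.00388, edgeR quasi-likelihood test). Scgb1a1, the secretoglobin of airway club cells (chromosome 19, 9083636 to 9087958, minus strand), stood at 50.3, 44.8 and 173.4 CPM in tea and at 0 CPM in each capsule library, at least 1989-fold higher (edgeR adjusted p = 0.0353). Tea 48 was the highest for both genes, and no tea library approached 0. Cxcl15, the chemokine lungkine of airway epithelium (chromosome 5, 90794534 to 90803067, plus strand), stood at 1.5, 3.44 and 3.04 CPM in tea and at 0 CPM in each capsule library, at least 59.1-fold higher (edgeR adjusted p = 0.0353). The floor of a capsule library was 0.037 to 0.0571 CPM, and it covers counting error only. With the 6 tea and capsule libraries alone, or with all 18 libraries, no gene was called, and removing the trend with gene length left Sftpc only. Leaving out capsule 24 gave 9 called genes, leaving out capsule 12 gave 2, leaving out tea 48 gave 4 (1 of them lower, and Cxcl15 not among them), and leaving out any other library of set C gave Sftpc alone.

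The other lung genes lay on the same side. Of the 20 genes of the lung list 18 were tested, 15 had a positive and 2 a negative fold, 11 had an unadjusted p under 0.05, all higher, and 12 had all 3 tea libraries above all 3 capsule libraries, against 4.59% of all genes tested; none lay wholly below, against 4.26%. The list's median log2 fold change was 3.85, or 3.62 with genes at 0 in a group set to their bound, beside -0.02 over all genes tested. Sftpd, a collectin of surfactant, stood at 0.970, 2.0 and 2.34 CPM in tea and at 0 CPM in each capsule library, at least 39.4-fold higher without passing the test (edgeR adjusted p = 0.0913). Sftpb, which spreads the surfactant film, stood at 4.37, 7.13 and 8.62 CPM in tea and 0, 0 and 0.476 CPM in capsule. Sftpa1, another collectin, stood at 3.18, 7.13 and 8.07 CPM in tea and 0, 0 and 0.742 CPM in capsule. Capsule 24 held the only capsule reads of both. The airway secretoglobin Scgb3a2 stood at 0.784 to 2.91 CPM in tea and at 0 CPM in each capsule library, and the lung and thyroid transcription factor Nkx2-1 at 0.230 to 0.969 CPM in tea and at 0 CPM in each capsule library. Ager, the receptor of alveolar type I cells, was present throughout, at 7.44, 6.12 and 8.32 CPM in tea and 1.74, 1.94 and 1.37 CPM in capsule, a log2 fold change of 2.11 ± 0.27 (SE, n = 3 each; edgeR adjusted p = 0.121). Foxj1, the factor of ciliated cells, Rtkn2 and Lamp3 also separated the groups.

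Not every listed lung gene did so. Slc34a2, a phosphate transporter that the intestine also expresses, stood at 72.6 to 182.8 CPM in tea and 63.7 to 289.2 CPM in capsule, and the lipid transporter Abca3 at 92.8 to 105.5 CPM in tea and 90.2 to 109.4 CPM in capsule. Napsa, Hopx and Cyp2f2 overlapped as well, and Bpifa1 had no read in any of the 6 libraries. Scgb3a1, with 14 reads in tea and 0 in capsule, and Bpifb1, with no read, did not pass the filter on low counts. Apart from Ager, the genes that separated were at 0 CPM in at least 1 capsule library. The list summed to 334.7 to 569.7 CPM in tea and 216.7 to 393.0 CPM in capsule, which overlapped, and the part of RNA from outside the colon in these values was not tested. The saline libraries held these transcripts too: Sftpc stood at 57.9, 70.6 and 89.5 CPM in saline, above every tea library, and Scgb1a1 at 102.2, 97.8 and 88.5 CPM. In set X the direction was the other one. Sftpc there stood at 42.1, 0 and 0 CPM in the 3 tea libraries and at 95.1, 46.6 and 54.8 CPM in the 3 capsule libraries, and the list median was -2.03. Over all genes of set X a positive fold was found in 49.5%, 4.9% lay wholly above and 8.73% wholly below capsule. The difference between the sets had an unadjusted p of 0.00728 for Sftpc, 0.0092 for Scgb1a1 and 0.00516 for Cxcl15 in the edgeR interaction test, with adjusted p of 0.9999, 0.9999 and 0.977.

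**Figure D1:**
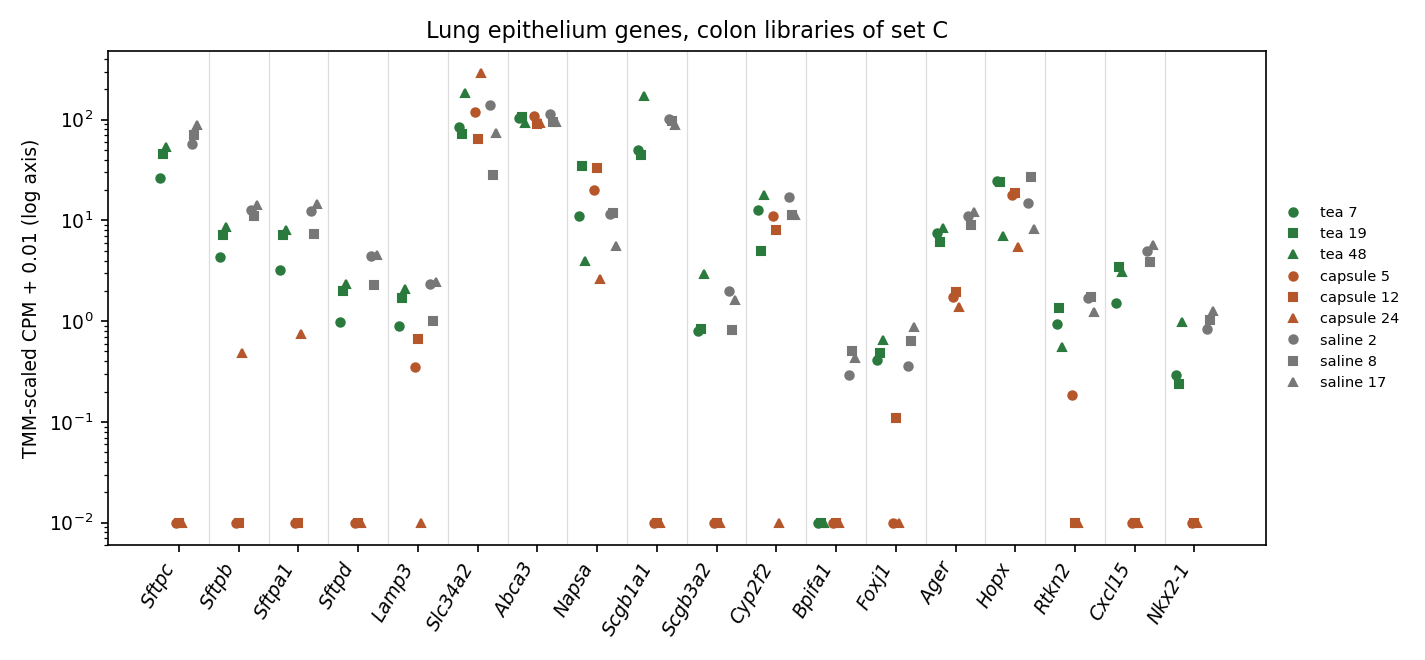
Level of each tested lung list gene in the 9 libraries of set C (TMM-scaled CPM plus 0.01, log axis; points are single libraries, tea left of capsule and saline at the right). Capsule points of Sftpc, Scgb1a1 and Cxcl15 lie at the bottom of the axis, which stands for 0 reads, while all tea points of these genes lie above 1 CPM.

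Further genes had small p without passing the threshold, and beside lung genes they included the genes of 1 plasma protein and 1 globin. Hp, the haemoglobin-binding plasma protein haptoglobin, stood at 2.96, 3.30 and 5.36 CPM in tea and 0.354, 1.06 and 0.685 CPM in capsule, against 58.98 to 68.2 CPM in saline (log2 fold change 2.46 ± 0.40, SE; edgeR adjusted p = 0.441). Hba-a2, an alpha globin, stood at 7.72, 11.4 and 7.30 CPM in tea and 0.354, 1.64 and 0.38 CPM in capsule (3.46 ± 0.61; edgeR adjusted p = 0.599). Both separated the groups completely, with the lowest tea library above the highest capsule library. Cyp2b10, a xenobiotic-metabolizing cytochrome also found in lung, stood at 1.04, 0.576 and 0.732 CPM in tea and at 0 CPM in each capsule library, at least 17.4-fold higher (edgeR adjusted p = 0.155). Crispld1 (at least 11.1-fold, adjusted p = 0.155) and the cell cycle inhibitor Cdkn2a (at least 5.95-fold, adjusted p = 0.625, both edgeR) likewise had no capsule read.

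On the lower side stood epithelial, clock and signalling genes, none past the threshold. Cyp2d9, a cytochrome of the 2D family, stood at 143.0, 133.9 and 142.0 CPM in tea and 299.4, 245.1 and 245.2 CPM in capsule, a log2 fold change of -0.92 ± 0.17 (SE; edgeR adjusted p = 0.606). Tns4, a focal adhesion protein of epithelia, stood at 120.6, 61.7 and 116.8 CPM in tea and 405.0, 289.7 and 331.4 CPM in capsule (-1.78 ± 0.36; edgeR adjusted p = 0.625). H2-T22, a nonclassical MHC class I gene whose reads may be shared with close relatives, stood at 35.7, 46.6 and 28.8 CPM in tea and 71.7, 94.7 and 148.9 CPM in capsule (-1.51 ± 0.30; edgeR adjusted p = 0.625). Spread within each group was small for Cyp2d9 and wider for the other pair. Gprin3 (-1.0 ± 0.18), the ubiquitin ligase Lnx1 (-0.97 ± 0.19) and Elmod3 (-0.86 ± 0.17) had adjusted p of 0.599 to 0.625 (edgeR) and no overlap between groups. The ligand Wnt16 had no read in tea and 0.368, 0.543 and 0.476 CPM in capsule, at least 10.1-fold lower (edgeR adjusted p = 0.441). No tea read was found either for Wdr93 (at least 4.54-fold lower), the neuronal adhesion molecule Cntnap4 (at least 4.88-fold lower) or Nupl1 (at least 5.09-fold lower). Klra2, a receptor of the Ly49 family of natural killer cells, had 3 reads in tea in all (0.0399, 0 and 0 CPM) and 0.831, 0.827 and 0.552 CPM in capsule. DESeq2 called 189 genes in this comparison, 135 higher and 54 lower, and limma voom with sample quality weights 298, 247 higher and 51 lower; both included Ager, Hp, Hba-a2, Cyp2d9, Tns4 and H2-T22.

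Clock genes lay mostly below capsule. Of 26 genes, all tested, 19 had a negative fold, 11 lay wholly below and 1 wholly above the capsule libraries (4.26% and 4.59% of all genes tested), and 8 had an unadjusted p under 0.05, all lower (2.04% of all genes); edgeR called none. The list median was -0.36 on the log2 scale, beside -0.02 over all genes tested, and it was -0.13 without capsule 24 and -0.24 without tea 19. Among the activators, Arntl stood at 39.0, 43.9 and 74.9 CPM in tea and 25.1, 21.8 and 53.5 CPM in capsule, and Clock at 51.9 to 59.1 CPM in tea and 50.7 to 74.6 CPM in capsule. Their groups overlapped, as did those of Npas2, a relative of Clock, at 43.9 to 61.2 CPM in tea and 25.8 to 61.17 CPM in capsule.

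The repressors and output genes carried the difference. Of the 8 repressor genes 7 had a negative fold and 6 lay wholly below. Per3 stood at 14.0, 8.22 and 14.8 CPM in tea and 37.0, 38.8 and 29.0 CPM in capsule, a log2 fold change of -1.50 ± 0.36 (SE; edgeR adjusted p = 0.763). Per2 had -0.56 ± 0.23. Ciart, a repressor of the CLOCK and ARNTL pair, stood at 1.06, 1.09 and 3.33 CPM in tea and 7.98, 10.1 and 13.3 CPM in capsule (-2.52 ± 0.78). Per1, Bhlhe40 and Bhlhe41 lay wholly below too, while Cry1 and Cry2 overlapped. Both genes of the REV-ERB receptors, which repress Arntl, stood lower. Nr1d1 was at 146.7, 105.2 and 94.9 CPM in tea and 292.6, 205.8 and 303.1 CPM in capsule (-1.21 ± 0.26; edgeR adjusted p = 0.675). Nr1d2 was at 35.0, 32.5 and 54.0 CPM in tea and 98.1, 96.3 and 108.9 CPM in capsule (-1.32 ± 0.33). Rora, the gene of an opposing receptor, overlapped.

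Dbp, a D-box activator and the standard readout of clock output (chromosome 7, 45705088 to 45710203, plus strand), stood at 10.1, 7.99 and 6.93 CPM in tea and 70.8, 83.4 and 68.9 CPM in capsule. Its log2 fold change of -3.16 ± 0.74 was the farthest from 0 in the list (edgeR adjusted p = 0.743). Tef, of the same family, stood at 38.9, 33.5 and 62.2 CPM in tea and 125.7, 127.3 and 137.0 CPM in capsule (-1.54 ± 0.43). Nfil3, which opposes them at D-boxes, was the gene wholly above capsule, at 5.33, 9.78 and 8.80 CPM in tea and 2.27, 2.68 and 4.77 CPM in capsule. The deubiquitinase gene Usp2 stood at 8.72, 16.7 and 16.8 CPM in tea and 18.03, 42.3 and 39.3 CPM in capsule (-1.24 ± 0.47). Hlf, also of the Dbp family, overlapped, at 3.36 to 19.6 CPM in tea and 6.89 to 43.4 CPM in capsule, and so did the kinase genes Csnk1d, Csnk1e and Wee1, Timeless and the deadenylase gene Noct. Saline was no steady baseline for these genes: Dbp stood at 18.4, 185.9 and 42.3 CPM in the saline libraries. DESeq2 called Dbp, Per3, Nr1d1 and Nr1d2 lower in tea, and limma voom with quality weights called no clock gene.

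In set X several clock genes had folds of the same sign. Per3 had -1.55 ± 0.52 and Dbp -2.38 ± 0.87 on the log2 scale (tea over capsule), and the list median was -0.22. The groups of both genes overlapped in set X. Dbp stood there at 6.70 to 19.8 CPM in tea and 7.97 to 138.8 CPM in capsule, and Per3 at 11.1 to 13.9 CPM in tea and 11.1 to 64.9 CPM in capsule. Those of Nr1d2 did not overlap, at 24.2 to 41.95 CPM in tea and 44.5 to 95.9 CPM in capsule. Nr1d1 was the member of the list with an unadjusted p under 0.05 for the difference between the sets (0.0188; edgeR adjusted p = 0.9999), at 0.15 ± 0.42 in set X. No hour of sampling is given in the sources used here, and its part in these values was not tested.

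**Figure D2:**
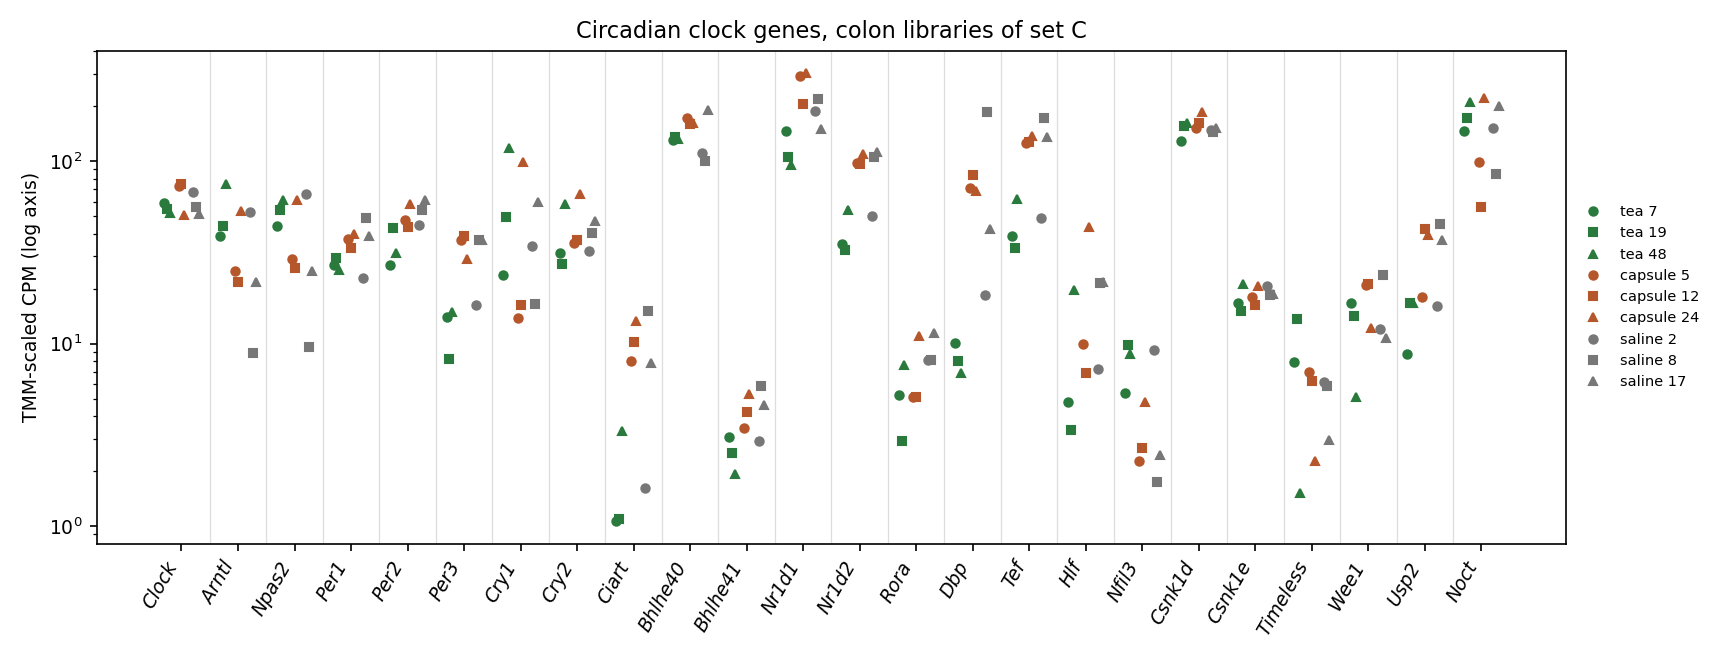
Level of the clock list genes reported by name in the 9 libraries of set C (TMM-scaled CPM, log axis; points are single libraries, tea left of capsule and saline at the right). Tea points of Dbp, at 6.93 to 10.1 CPM, lie below capsule points at 68.9 to 83.4 CPM, and the saline points of Dbp spread from 18.4 to 185.9 CPM.

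Nuclear genes of oxidative phosphorylation, the chain of complexes I to IV and the ATP synthase, stood mostly higher in tea. All 76 were tested, 61 had a positive fold with a median of 0.50 (log2), 27 (35.5%) lay wholly above capsule and 2 wholly below (4.59% and 4.26% of all genes), and 37 had an unadjusted p under 0.05, all higher (3.18% of all genes); edgeR called none. Complex IV was the most uniform, with 10 of 10 positive and 7 wholly above, and of 37 complex I genes 34 were positive and 12 wholly above. All 4 genes of complex II were negative. The list summed to 10140 to 13340 CPM in tea, lowest in tea 48, and 10070 to 11550 CPM in capsule, which overlapped. The sums of the ATP synthase genes overlapped too, at 3825 to 5084 CPM in tea and 4092 to 5128 CPM in capsule. Those of complex IV did not, at 2035 to 2622 CPM in tea and 1251 to 1864 CPM in capsule. Atp5k, the e subunit of the ATP synthase, stood at 30.5, 34.1 and 22.5 CPM in tea and 9.48, 11.4 and 16.3 CPM in capsule (log2 fold change 1.23 ± 0.25, SE; edgeR adjusted p = 0.625). Ndufa3, an accessory subunit of complex I, stood at 22.0, 25.4 and 15.6 CPM in tea and 8.39, 9.31 and 11.3 CPM in capsule (1.12 ± 0.23; edgeR adjusted p = 0.65). Cox5a, a complex IV subunit, stood at 350.6, 389.1 and 277.9 CPM in tea and 143.5, 189.1 and 220.5 CPM in capsule. Limma voom with quality weights called 26 of the 76 and DESeq2 6, all higher. In set X the median was 0.08.

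The mitochondrially encoded subunits of the same complexes did not follow. All 13 had a negative fold, with a median of -0.90 and none separated. Capsule 24 was the highest library: mt-Nd4l stood at 132.7, 117.8 and 534.6 CPM in tea and 350.4, 171.8 and 1344 CPM in capsule, and without capsule 24 the list median was 0.63.

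Ribosomal protein genes leaned the same way as the nuclear genes of oxidative phosphorylation. Of 77 cytosolic ribosomal protein genes 70 had a positive fold with a median of 0.49, 9 lay wholly above and none below (4.59% and 4.26% of all genes, and 8.98% and 2.31% of the shortest quartile), and 15 had an unadjusted p under 0.05, all higher (3.18% of all genes). The median was 0.88 without tea 48, 0.32 without tea 7, 0.33 without capsule 24 or tea 19, and 0.24 with the mitochondrial share as a covariate. The list summed to 38690, 35020 and 13110 CPM in tea and 26560, 29220 and 13230 CPM in capsule, so tea 48 lay below every capsule library. Rps29 stood at 116.9, 114.2 and 43.9 CPM in tea and 28.6, 38.6 and 32.6 CPM in capsule (log2 fold change 1.46 ± 0.38, SE; edgeR adjusted p = 0.821), and Rps28 at 121.2, 115.4 and 36.8 CPM in tea and 28.4, 33.0 and 25.2 CPM in capsule (1.66 ± 0.44; edgeR adjusted p = 0.831). Tea 48 lay near capsule for both. Reads of these genes may be shared with processed pseudogenes, so single values are uncertain. Mitochondrial ribosomal protein genes had 26 of 32 positive with a median of 0.33, such as Mrps21 at 0.70 ± 0.20 and Mrpl20 at 0.51 ± 0.21.

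These genes are short, and short genes as a whole stood higher. Length here is the value implied by the deposited count and FPKM of each gene, not one read from an annotation. In the shortest quartile of tested genes 8.98% lay wholly above capsule and 2.31% wholly below, with a median log2 fold change of 0.20; in the longest quartile 1.62% lay above and 6.84% below, with a median of -0.12. By GC content the lowest quartile had a median of -0.17 and the highest 0.14. Spearman's rho of the fold with length was -0.2 over 20761 genes and with GC content 0.25 over 20931 genes, across genes, which share the same 6 libraries and are not independent replicates. The median length was 1905 bases for the nuclear genes of oxidative phosphorylation, 1908 bases for cytosolic ribosomal protein genes and 3773 bases over all genes tested. With the trend of each library with length removed the medians were 0.30 and 0.40, and with the GC trend removed 0.34 and 0.43, each pair in the order of the lists just named.

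**Figure D3:**
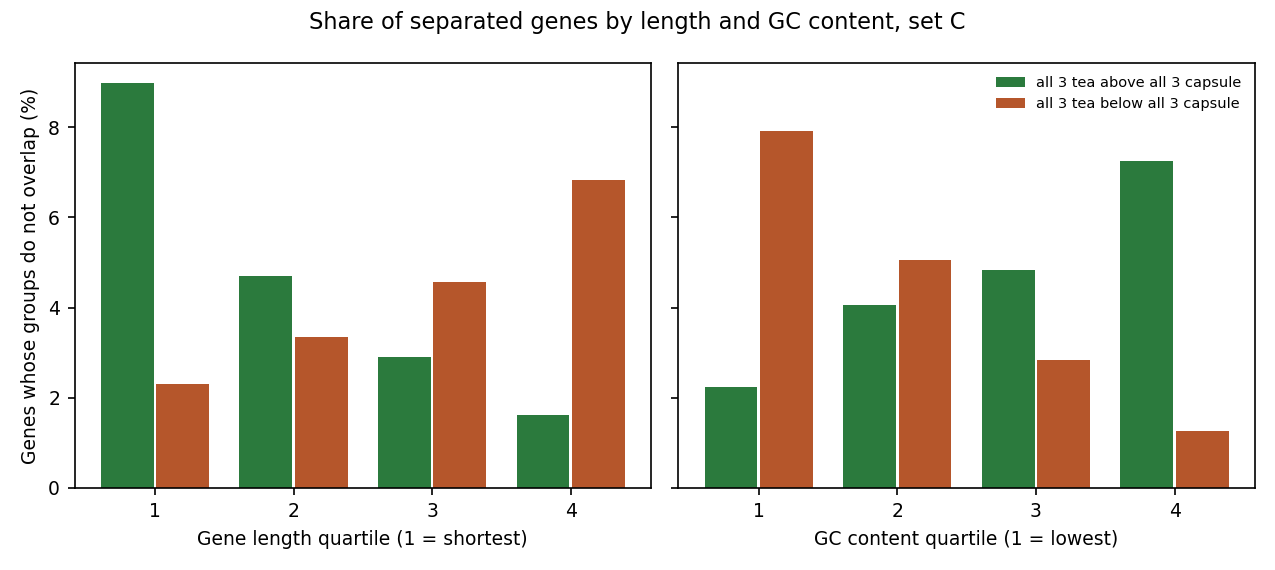
Share of tested genes whose 3 tea libraries all lie above (green) or all below (orange-brown) the 3 capsule libraries, in percent. Genes are split by quartile of gene length, as implied by count and FPKM (left), and GC content (right). The green share falls from 8.98% in the shortest quartile to 1.62% in the longest.

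Lists of other cell types were described next; in bulk RNA fewer cells of a type and less RNA per cell cannot be told apart. Haemoglobin and red cell genes had 5 of 5 tested members positive, median 1.07, with 4 wholly above capsule (4.59% of all genes) and a median of 0.69 without tea 19; Hbb-bs stood at 16.7, 24 and 16.4 CPM in tea and 10.97, 10.3 and 10.6 CPM in capsule (log2 fold change 0.84 ± 0.21, SE; edgeR adjusted p = 0.778). Globin genes are near copies of each other and their single values are uncertain. Fat cell genes had 10 of 12 positive with a median of 1.53, and 1 wholly above, the lipase Lipe, at 30.04, 15.3 and 18.9 CPM in tea and 12.9, 13.3 and 12.7 CPM in capsule. The fat hormone gene Adipoq stood at 30.9, 7.96 and 0.402 CPM in tea and 0.327, 0.0988 and 6.03 CPM in capsule, so that tea 7 was highest and the groups overlapped. Without capsule 24 the fat cell median was 5.55, and without tea 7 it was 0.65. Plin1, which coats lipid droplets, stood at 11.2, 1.41 and 0.146 CPM in tea and 0.0545, 0.0494 and 0.837 CPM in capsule.

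Skeletal muscle genes had 12 of 12 positive with a median of 2.23, and keratinized epithelium genes 12 of 12 with a median of 1.92. Tea 19 was the highest library of both: the basal keratin gene Krt5 stood at 0.279, 8.88 and 0 CPM in tea and at 0 CPM in each capsule library, and without tea 19 the keratinized median was 0 and the skeletal muscle median 0.51. Tnnt3, the troponin of fast fibres, stood at 0.492, 5.26 and 0.677 CPM in tea and 0.354, 0.161 and 0.38 CPM in capsule. In set X the medians of both lists and of fat cell genes were below 0, at -4.47 for skeletal muscle, -2.85 for keratinized epithelium and -2.51 for fat cells. The cartilage collagen Col2a1 stood at 0 CPM in tea and 0 to 0.286 CPM in capsule, and passed the filter on low counts only through saline. Saline of set C lay above every tea and capsule library for Col2a1 (70.6 to 87.8 CPM), Krt5 (10.7 to 23.0 CPM), Tnnt3 (18.1 to 49.5 CPM) and Adipoq (62.2 to 79.8 CPM). The sum of the keratinized list did not, at 89.4 to 137.6 CPM in saline and 30.5 to 140.5 CPM in tea.

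**Figure D4:**
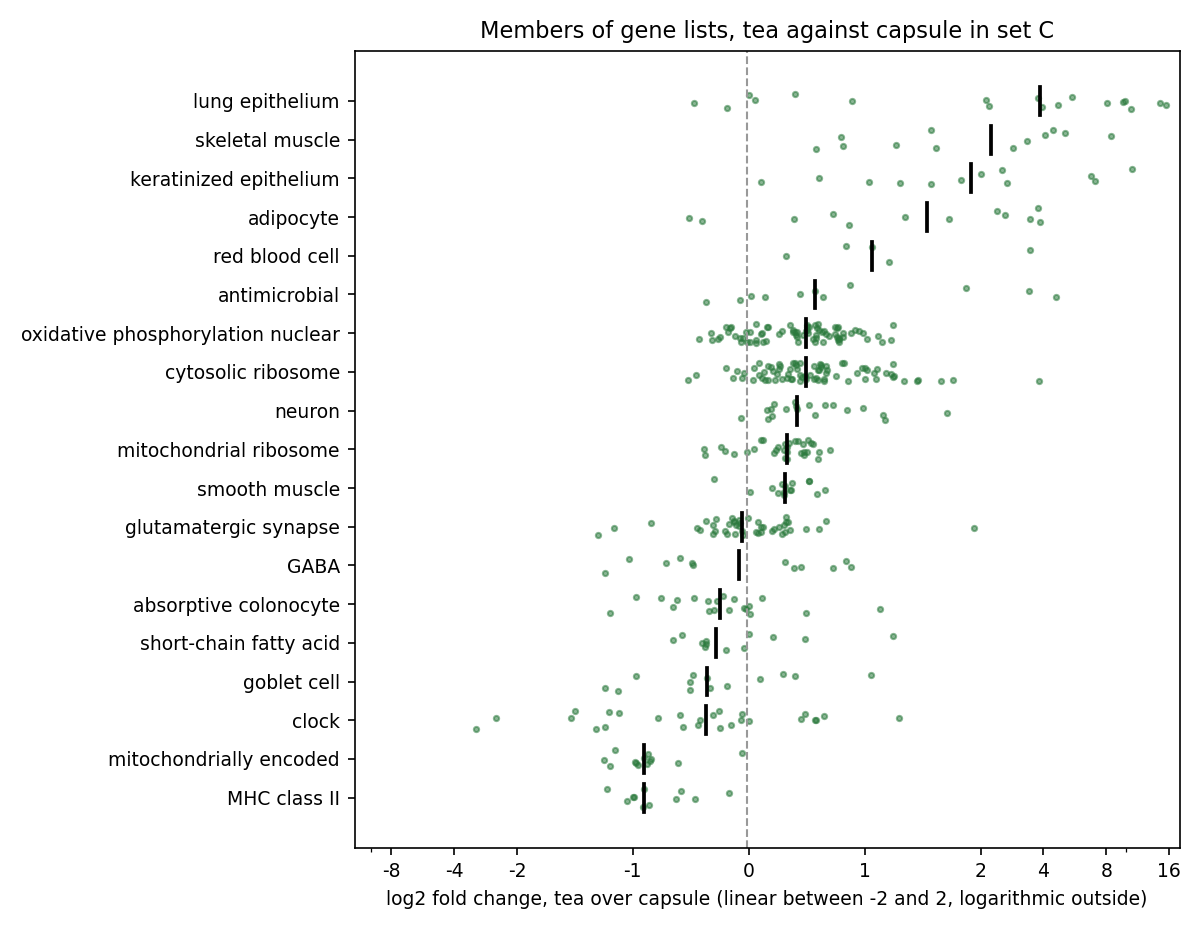
Log2 fold change (tea over capsule, set C) of each tested member of 19 gene lists, ordered by median; green points are genes, black bars list medians and the dashed line the median of all genes tested. The lung list has the highest median, 3.85, and MHC class II the lowest, -0.91.

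No member of the immune and epithelial lists was called by edgeR. MHC class II genes, which present peptides to helper T cells, had 0 of 11 positive with a median of -0.91 and 2 wholly below (4.26% of all genes tested); the median was -1.63 without tea 19 and -0.44 without tea 48. H2-DMb1, which helps load peptides, stood at 11.4, 22.0 and 4.04 CPM in tea and 26.7, 26.6 and 24.3 CPM in capsule (log2 fold change -1.05 ± 0.57, SE). H2-Ab1 stood at 81.2, 173.4 and 30.1 CPM in tea and 151.5, 179.3 and 335.3 CPM in capsule, with tea 19 among the capsule values. B cell genes had 0 of 11 positive (median -0.44), but none separated. Their sum overlapped, at 13.3 to 457.5 CPM in tea and 29.9 to 537.9 CPM in capsule. Of 164 immunoglobulin variable segments 8 were positive, with a median of -2.30. The segments summed to 36.6 to 226.1 CPM in tea and 21.1 to 1151 CPM in capsule, which overlapped. T cell genes had a median of 0.07, and interferon response genes one of -0.17.

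Among epithelial genes the membrane mucin Muc4 stood at 17.2, 14.7 and 25.6 CPM in tea and 41.6, 35.1 and 49.3 CPM in capsule, with no overlap (log2 fold change -1.13 ± 0.26, SE; edgeR adjusted p = 0.735). The goblet cell list as a whole had 9 of 13 negative with a median of -0.36, and 0.07 without tea 48. Slc5a8, the colonic transporter of butyrate and other monocarboxylates, stood at 161.2, 168.0 and 142.3 CPM in tea and 280.4, 284.1 and 177.8 CPM in capsule (-0.66 ± 0.22; edgeR adjusted p = 0.871). The chloride exchanger gene Slc26a3 stood at 1052, 757.5 and 1805 CPM in tea and 2140, 1825 and 2142 CPM in capsule (-0.76 ± 0.44). Absorptive colonocyte genes had 16 of 20 negative with a median of -0.24, which was -0.42 without capsule 24, -0.38 without tea 7, and -0.13 to -0.15 without tea 48, capsule 5 or capsule 12. In the short-chain fatty acid list, with 8 of 12 negative, the receptor gene Ffar3 ran the other way at 1.22, 1.70 and 2.23 CPM in tea and 0.436, 0.803 and 0.932 CPM in capsule (1.25 ± 0.48). Antimicrobial genes had a median of 0.57, which was -0.02 without tea 19; Saa3, an acute-phase serum amyloid, stood at 11.54, 7.83 and 4.28 CPM in tea and 0.967, 1.63 and 3.88 CPM in capsule. Reg3b, a bactericidal lectin, stood at 16.6 CPM in tea 19 and at 0.0399 to 0.457 CPM in the other 5 libraries.

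The series title names glutamatergic synapses. Of 51 such genes 44 were tested, 20 had a positive and 24 a negative fold, with a median of -0.06. Wholly below capsule lay 1 (2.27%, against 4.26% of all genes tested) and wholly above 0 (against 4.59%), so the list held no excess of separated genes. That gene was the kainate receptor subunit Grik4, at 0.798, 0.936 and 0.530 CPM in tea and 1.28, 0.963 and 1.83 CPM in capsule (log2 fold change -0.84 ± 0.43, SE; edgeR adjusted p = 0.948). The vesicular transporter Slc17a6 had -1.30 ± 0.71. No member reached an unadjusted p under 0.05, and the sign of the median turned under 9 of 21 other settings. Of 12 tested GABA genes 6 were positive, with a median of -0.09 whose sign turned under 6 settings. Abat, which breaks down GABA, stood at 231.0, 153.2 and 218.8 CPM in tea and 384.2, 343.8 and 262.4 CPM in capsule, with no overlap (-0.72 ± 0.24; edgeR adjusted p = 0.876).

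General neuron genes stood on the other side, with 18 of 19 positive and a median of 0.42. Phox2a, a transcription factor of autonomic and enteric neurons, stood at 3.40, 5.24 and 2.95 CPM in tea and 0.626, 0.667 and 2.26 CPM in capsule (log2 fold change 1.71 ± 0.55, SE; edgeR adjusted p = 0.864). Map2, a dendrite protein gene, had 1.17 ± 0.46. Smooth muscle genes had 14 of 15 positive with a median of 0.32 and none separated, and without capsule 12 their median was -0.05. The muscle filament gene Des stood at 1769, 846.5 and 2271 CPM in tea and 518.0, 457.6 and 2279 CPM in capsule. Capsule 5 and 12 were low in muscle transcripts and capsule 24 high, and the neuron median was 1.55 without capsule 24 and 0.07 without capsule 12. The part of muscle layer content in the neuron values was not tested.

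The difference between the sets passed the threshold for 1 gene of 22380 (0.00447%) in the edgeR interaction test, where 948 (4.24%) had an unadjusted p under 0.05, 3.3% with the higher and 0.938% with the lower fold in set C; 51.7% of differences were positive. In set X itself no gene was called in tea against capsule (0.0%; 1235 of 20889 at an unadjusted p under 0.05, 5.91%, of which 1.13% higher and 4.78% lower, as shares of all genes tested). Sbsn, the gene of the epidermal protein suprabasin (chromosome 7, 30751471 to 30756134, plus strand), stood in set C at 3.19, 4.23 and 2.63 CPM in tea and 0.885, 1.42 and 1.07 CPM in capsule, a log2 fold change of 1.57 ± 0.30 (SE). Saline of set C stood at 10.9, 9.77 and 10.7 CPM, above every tea and capsule library of that set. In set X Sbsn stood at 1.77, 1.68 and 1.70 CPM in tea and 10.6, 6.24 and 4.50 CPM in capsule, a fold of -2.05 ± 0.37. The difference was 3.62 ± 0.46 (edgeR adjusted p = 0.0227), and the groups did not overlap in either set. Leaving out 1 library at a time ended this call in 7 of 12 cases: capsule 5, capsule 24 and tea 7 of set C, and 1 capsule and all 3 tea libraries of set X. The other genes with the smallest p were Inmt, a methyltransferase abundant in lung, and the skin genes Krt1, Krt5 and Hrnr, at an adjusted p of 0.604 each. Of these Inmt stood at 6.09, 8.09 and 5.18 CPM in tea and 0.681, 2.26 and 2.02 CPM in capsule of set C.

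**Figure D5:**
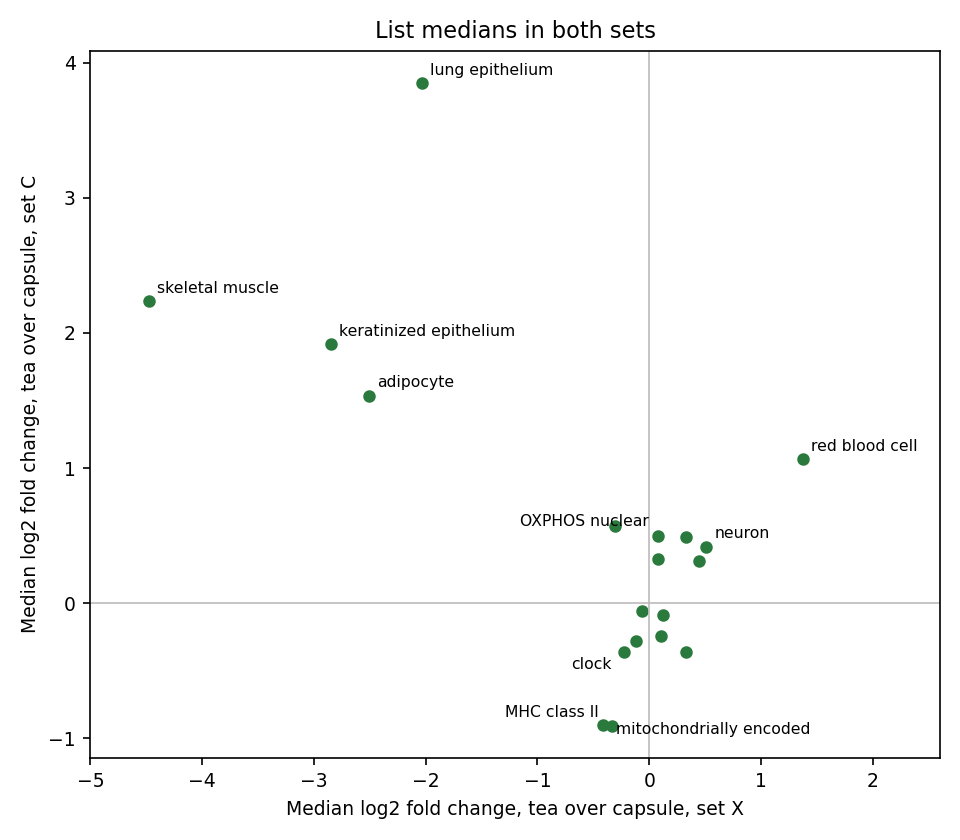
Median log2 fold change (tea over capsule) of 19 gene lists in set X (horizontal) and set C (vertical); each point is a list and the sets share no library. Lung, skeletal muscle, keratinized epithelium and fat cell genes lie above 0 in set C and below 0 in set X, and red blood cell genes above 0 in both.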

How the data were processed

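Libraries were made from 5 ug of total colon RNA with oligo(dT) beads, per the labels' protocols. Among tools, the submitters' processing notes list edgeR without a version, StringTie 1.3.4d, HISAT2 2.0.4 and cutadapt 1.9; they list a human build, whereas 33866 of the 33977 gene identifiers are in mouse GENCODE M21 (GRCm38) and 30908 have its coordinates. Per the file headers, the authors deposited 1 table with a whole-number read count and an FPKM value per gene and library; whether counting used strand, and how shared reads were treated, was not stated in these sources. Antisense partners and near-identical copies therefore cannot be told apart.

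The counts were tested with edgeR 4.0.16 (R 4.3.3): TMM scaling, filterByExpr with a minimum count of 10, and its quasi-likelihood test; p-values were adjusted by Benjamini-Hochberg, with a threshold of 0.05. The fit of set C used its 9 libraries (20964 genes, 6 residual degrees of freedom, biological coefficient of variation 0.556). Set X was fitted likewise, and all 18 libraries together for the difference between the sets. Each standard error was obtained by dividing the size of the log2 fold change by the root of its F statistic. The FPKM values the authors deposited gave, with the counts, the gene lengths, and entered 1 alternative directly, limma 3.58.1 on log2(FPKM + 0.1). Another alternative was DESeq2 1.42.0. The scripts were checked on simulated counts. Chi-square per degree of freedom between libraries of the same group was far above counting noise, so no library was a copy of another.

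The comparison and the 50 gene lists were chosen with earlier results of these data known. Named genes were those past the threshold, the 12 higher and 12 lower genes of smallest p (clone names and receptor segments left out), the 2 with the smallest p of each list described, all clock and lung genes, markers of the libraries and, for the difference between sets, the 5 with the smallest p. Some clock genes count in their list but are not reported here by name. Cox5a was added after its values were seen.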

Additional observations from a re-analysis of the deposited data

Results flagged for a closer look

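Sbsn was the gene whose tea over capsule difference passed a test of the difference between set C and set X. Its log2 fold change was 3.62 higher in set C than in set X (edgeR interaction, adjusted p = 0.0227). All 3 tea libraries lay above the capsule libraries in set C and all 3 below them in set X. Saline of set C lay above both groups of its set, at 9.77 to 10.9 CPM. The sets also differed in Xist and Y-linked transcripts, so set and sex cannot be told apart here. The call ended in 7 of the 12 fits that left out 1 tea or capsule library.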

How the results depend on the processing

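The count of 3 genes called in tea against capsule, all higher, was 3 with DESeq2 size factors, without a filter on low counts, with a mean CPM of at least 1 and with the mitochondrial share as a covariate, and 2 with the GC trend removed. It was 189 (135 higher, 54 lower) with DESeq2, 298 (247 higher, 51 lower) with limma voom and quality weights, 7 (6 higher, 1 lower) with limma on log2(FPKM + 0.1), 1 higher with the length trend removed, and 0 with the 6 tea and capsule libraries or all 18 libraries. Leaving out single libraries gave 1 to 9 calls, 1 to 9 higher and 0 to 1 lower; without tea 48, capsule 24 and saline 17 together it was 11 (9 higher, 2 lower). The 1 gene called for the difference between sets became 93 with DESeq2 (85 higher, 8 lower) and 0 to 2 without single libraries (0 to 1 higher, 0 to 1 lower). It was 0 without capsule 5, capsule 24 or tea 7 of set C, or without 1 of the capsule libraries or any tea library of set X. The 962 genes wholly above capsule were 589 with a mean CPM of at least 1. The causes were not tested, except that this filter tests fewer genes.

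The mitochondrial share differed by -3.75 percentage points (tea minus capsule), and by -7.07 to 2.63 points without single libraries, an alternative chosen after seeing the data; it reversed to 2.63 without capsule 24. The mt-Nd4l log2 fold change likewise reversed to 0.078 (edgeR adjusted p = 0.981), within -2.31 to 0.078 without single libraries. Of 1131 gene values under other settings 1056 kept their direction and side of the threshold, 49 newly passed it, 25 no longer passed it and 1 reversed. In tea against capsule 3 genes had passed it in the main fit, so only these could lose it. Most of the values that kept their side did so by staying short of the threshold, which says little of how stable the calls were. Of 399 list medians 31 moved by more than the spread between libraries. No paired analysis was possible because the library numbers in the titles are not shared between groups. With 3 libraries a group, depth limits only genes near the floor of 3 counts.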

Other observations

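Genes of the aryl hydrocarbon receptor pathway, which senses plant and microbial compounds, had 7 of 8 negative folds in tea against capsule with a median of -0.43, and 3 lay wholly below (4.26% of all genes tested, of which 48.2% had a positive fold). Ahr itself stood at 13.3, 11.8 and 15.6 CPM in tea and 20.6, 18.6 and 15.9 CPM in capsule, its partner Arnt at 38.2, 39.0 and 46.1 CPM in tea and 49.8, 49.5 and 46.7 CPM in capsule, and the quinone reductase gene Nqo1 at 6.63, 4.003 and 5.63 CPM in tea and 8.14, 8.88 and 8.33 CPM in capsule. Its classical target Cyp1a1 stood at 0.0532 to 0.366 CPM in tea and 0 to 0.407 CPM in capsule. Cyp1a2, another target, had no read in tea and stood at 0, 0.0988 and 2.05 CPM in capsule, so its level there rested on capsule 24. It was at least 15.6-fold lower in tea (edgeR unadjusted p = 0.0199, adjusted p = 0.919). Cyp1a2 and Ahr had the smallest p of the list. The other genes were picked from the list after their values were seen, and none of the genes named passed the test.

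Y-linked transcripts were low in both groups of set C. Ddx3y stood at 0.389 to 1.12 CPM in tea and 0.218 to 0.742 CPM in capsule, against 3.59 to 3.84 CPM in saline of the same set and 15.9 to 59.5 CPM in set X. Kdm5d lay at 0.266 to 1.12 CPM in tea and 0.0953 to 0.209 CPM in capsule.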
